A study of Mus musculus with 3 samples.

Results

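Oxytocin, vasopressin and stress hormone genes were followed as a set of 10 genes in adult mouse cortex. The set was chosen by name, from the symbols Oxt, Oxtr, Avp, Avpr1a, Crh, Crhr1, Crhbp, Nr3c1, Nr3c2 and Fkbp5. Earlier results of these data were known when it was chosen. Array probes were assigned to a gene when the probe's accession matched that gene in RefSeq. Of the 10 genes, 7 had a matched probe, among 15724 genes named in this way on the array, and these 7 genes carried 11 probes. Oxtr, Crh and Nr3c2 had no matched probe and were not analysed here.

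The study set Gtf2i(+/Δex2) mice, which carry 1 allele of Gtf2i named for a deletion of exon 2, against WT(+/+) mice. Cortex of 16-week-old animals of both genotypes was used, on the same mixed background, given as 98.4% C57BL/6J and 1.6% 129Sv/CD1. Each of 3 two-colour arrays carried mutant RNA in one dye and WT RNA in the other, each a pool from 3 to 5 mice, and the dyes were exchanged on replicate 2. Nothing in the labels tells if the arrays were made from separate pools or from the same ones. A p-value here therefore sets the mean ratio against the spread between the 3 arrays, and that spread may be only technical. Regions of the cortex, the sex of the mice and hormone state are not given in the labels.

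Oxytocin and vasopressin are short peptide hormones made mainly by hypothalamic neurons. They are cut from larger precursors and act on G-protein-coupled receptors that are also present in the cortex. Corticotropin-releasing hormone (CRH) starts the hormonal stress response in the hypothalamus and also serves as a local peptide of cortical interneurons. Its receptor CRHR1 raises cyclic AMP, and the secreted CRH-binding protein, product of Crhbp, holds the peptide away from its receptors. Glucocorticoids, the adrenal end product of this axis, bind the receptors encoded by Nr3c1 and Nr3c2, and Fkbp5 encodes a co-chaperone that lowers the affinity of the glucocorticoid receptor for its hormone and is itself induced by that receptor. Gtf2i encodes TFII-I, a transcription factor that can bind E-boxes, short DNA elements of the form CANNTG, at some promoters.

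Promoter windows are shown for Crhbp, which differed between the genotypes, and for Oxt and Avp, neighbouring genes on opposite strands. Each window holds the 250 bases before the RefSeq start on GRCm38.p6, written 5′ to 3′ on the gene's strand, with every CANNTG in capitals. The windows are chr13:95444832-95445081 on the minus strand for Crhbp, chr2:130575919-130576168 on the plus strand for Oxt and chr2:130582589-130582838 on the minus strand for Avp.
Crhbp: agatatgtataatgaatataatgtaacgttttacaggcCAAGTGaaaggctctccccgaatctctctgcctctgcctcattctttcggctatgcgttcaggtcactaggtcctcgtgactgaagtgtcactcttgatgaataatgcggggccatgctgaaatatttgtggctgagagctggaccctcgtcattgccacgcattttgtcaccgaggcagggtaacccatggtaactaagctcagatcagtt
Oxt: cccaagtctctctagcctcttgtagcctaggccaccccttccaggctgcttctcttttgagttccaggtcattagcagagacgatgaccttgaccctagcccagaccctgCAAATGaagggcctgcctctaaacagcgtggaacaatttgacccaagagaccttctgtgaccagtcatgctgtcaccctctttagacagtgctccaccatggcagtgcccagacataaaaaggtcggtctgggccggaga
Avp: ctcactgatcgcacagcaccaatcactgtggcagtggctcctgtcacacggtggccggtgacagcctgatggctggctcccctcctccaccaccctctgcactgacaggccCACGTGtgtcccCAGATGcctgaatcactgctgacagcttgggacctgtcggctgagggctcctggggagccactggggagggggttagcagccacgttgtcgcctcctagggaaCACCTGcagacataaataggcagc
Crhbp and Oxt each had 1 CANNTG, and Avp had 3, of which 1 was CACGTG, a special case of the same pattern. The pattern reads the same on both strands, so a search of this strand covers both. Among all 32851 RefSeq promoter windows of this length, 66.2% held a CANNTG and 6.02% held a CACGTG. A match describes the letters only, and binding was not measured in these arrays.

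Values below are the authors' normalized, background-subtracted intensities, and their log2 ratio of Gtf2i(+/Δex2) over WT on each array. That direction is likely, from the order of the sample titles, the deposited description of the fold as test against control, and control spots that turned over with the dyes (median log2 ratio of the Pro25G spots 4.51, -4.54 and 4.58 on replicates 1, 2 and 3). Intensities of different probes depend on each probe's own binding and were not set against each other. The negative control spots had median intensities of 75.5 to 81.0 in the mutant channels and 72.3 to 81.4 in the WT channels. Mean ratios were tested against 0 with limma, and a probe was called where its Benjamini-Hochberg adjusted p was under 0.05. The test took the 27531 probes that the authors' flags call reliable on 2 or 3 arrays. Of these 33.9% were called, 15.0% higher and 18.9% lower in Gtf2i(+/Δex2) cortex. Gtf2i itself had a log2 ratio of -0.47 ± 0.04 (SD, n = 3) at probe A_52_P442585 and -0.32 ± 0.05 at probe A_51_P499905, with limma adjusted p-values of 0.00261 and 0.00506. Their position with respect to exon 2 is unknown here, so they do not check the genotype. Markers of cortical neurons were measured, with 8 of 10 tested. Their summed intensities were 20130, 23530 and 20810 in the mutant channels and 17470, 20010 and 20290 in the WT channels.

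Of the hormone and receptor genes, 9 probes of 6 genes could be tested, and 2 of these probes, for 2 genes, were called. Crhbp was lower and Nr3c1 higher in Gtf2i(+/Δex2) cortex, with mean log2 ratios of -0.22 and 0.17. The count of called probes was 0 without replicate 1, when 2407 of all 27531 tested probes were called. It was 4 without replicate 3, when 9886 of the 27531 were called. The called share, 22.2% of the members' probes, was no larger than the 33.9% of all tested probes. By genes, 33.3% were called, against 40.7% of all 12721 tested genes taken at their probe of smallest p. Mean log2 ratios were above 0 at 6 of the 9 probes and below 0 at 3. The median log2 ratio of the 9 probes was 0.073, against -0.002 for all tested probes, and the median absolute log2 ratio was 0.125, against 0.109. The same sign was seen on all 3 arrays at 4 of the 9 probes, against 65.1% of all tested probes. At the 7 probes that were not called, the 95% intervals of the log2 ratio lay between -0.33 and 0.35.

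**Figure D1:**
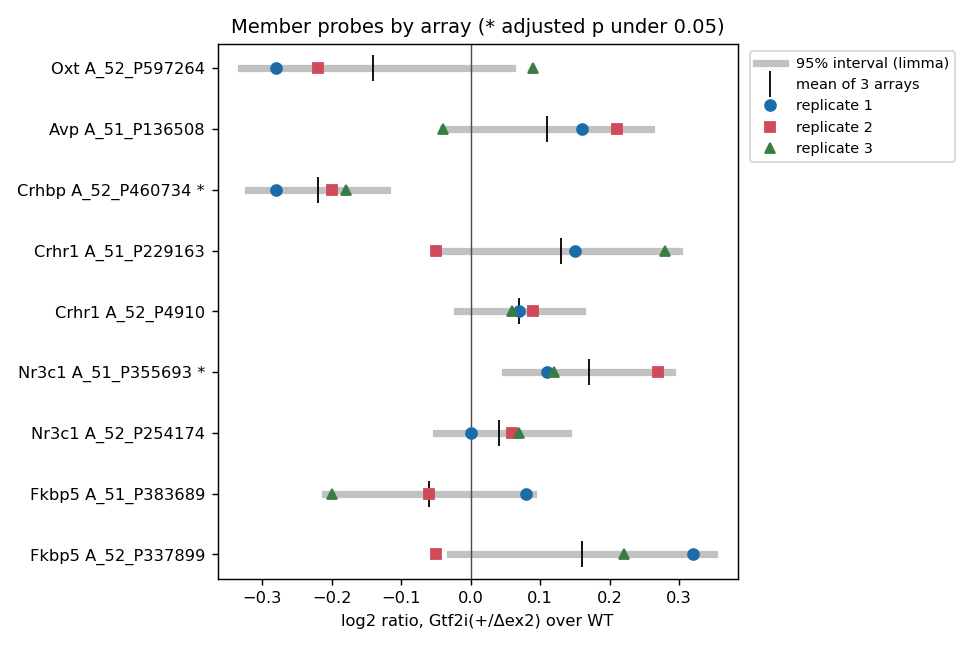
Log2 ratio of Gtf2i(+/Δex2) over WT (x axis) for each tested probe of the hormone and stress genes (y axis), with 1 symbol per array, a vertical tick at the mean of the 3 arrays and a grey bar for limma's 95% interval. Only the bars of Crhbp A_52_P460734 and Nr3c1 A_51_P355693 leave out 0 and pass the adjusted p, and for Oxt and Avp replicate 3 lies on the other side of 0 from replicates 1 and 2.

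Among the peptide hormones, neither Oxt nor Avp passed the test. Oxt, the oxytocin precursor gene, had intensities of 484.63, 496.03 and 346.49 in Gtf2i(+/Δex2) cortex on replicates 1, 2 and 3, against 588.50, 575.89 and 326.06 in WT cortex. Mutant signal was below WT signal on replicates 1 and 2 and above it on replicate 3, and the groups overlapped. The log2 ratios were -0.28, -0.22 and 0.09, with a mean of -0.14 ± 0.20 (SD, n = 3; limma adjusted p = 0.229, 95% interval -0.33 to 0.06). Without replicate 3 the mean was -0.25 and the probe was called (limma adjusted p = 0.00733).

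Avp, the vasopressin precursor gene, showed the opposite signs on the same arrays. Its intensities were 435.31, 476.08 and 347.87 in Gtf2i(+/Δex2) cortex and 390.22, 410.55 and 358.63 in WT cortex. The groups overlapped, with mutant signal above WT signal on replicates 1 and 2 and slightly below it on replicate 3. The log2 ratios of Avp were 0.16, 0.21 and -0.04, with a mean of 0.11 ± 0.14 (SD, n = 3; limma adjusted p = 0.211, 95% interval -0.04 to 0.26). Leaving out replicate 3 gave a mean of 0.19 and a call (limma adjusted p = 0.0261).

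Replicate 3 differed from the other two arrays in the level of both peptides, in both channels. For Oxt, the log2 signal averaged over both channels differed by -0.67 between replicate 3 and the mean of replicates 1 and 2, which is 0.629-fold, and 0.396% of all tested probes moved at least as far. For Avp the same difference was -0.27, and 7.28% of tested probes moved at least as far. Summed intensities of the hypothalamic markers were 6682, 7323 and 5989 in the mutant channels and 6959, 7266 and 5593 in the WT channels, so these sums were also lowest on replicate 3. Bright probes weigh most in such a sum. Taken singly at the probe of smallest p, Hcrt, Cartpt, Gal, Ghrh, Hdc and Tac2 were lowest on replicate 3 in both channels. Trh and Six3 were highest there, and Agrp followed neither order. The share of all tested probes that were lowest on replicate 3 in both channels was not computed. Genes outside this list could have the same order, such as Nr3c1 at probe A_51_P355693, Hsd11b1 and Pcsk1. Of the 14 hypothalamic markers, 9 were tested, with 1 called higher (Hcrt) and 2 lower (Trh and Tac2), against 17.1% higher and 23.6% lower over all tested genes at their probe of smallest p. Pmch had no matched probe, and Nkx2-1, Six6, Rax and Kiss1 were not reliable on 2 arrays. The sums of the thalamic markers were 12880, 14240 and 11450 in the mutant channels and 12340, 12910 and 6480 in the WT channels, the lowest again on replicate 3. The mean log2 ratio of their 15 tested probes, from 8 genes, was 0.587 there, against -0.04 and -0.033 on replicates 1 and 2. Other regions did not share this order. The sums of the striatal markers were 70990, 68830 and 95940 in the mutant channels and 60070, 80800 and 64680 in the WT channels, and those of the hippocampal markers were 7479, 7828 and 8698 in the mutant channels and 6882, 7719 and 7235 in the WT channels, each highest in the mutant channel of replicate 3. The part of tissue outside the cortex in the Oxt and Avp values was not tested. In these bulk samples, fewer cells of a type and less RNA per cell cannot be told apart.

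**Figure D2:**
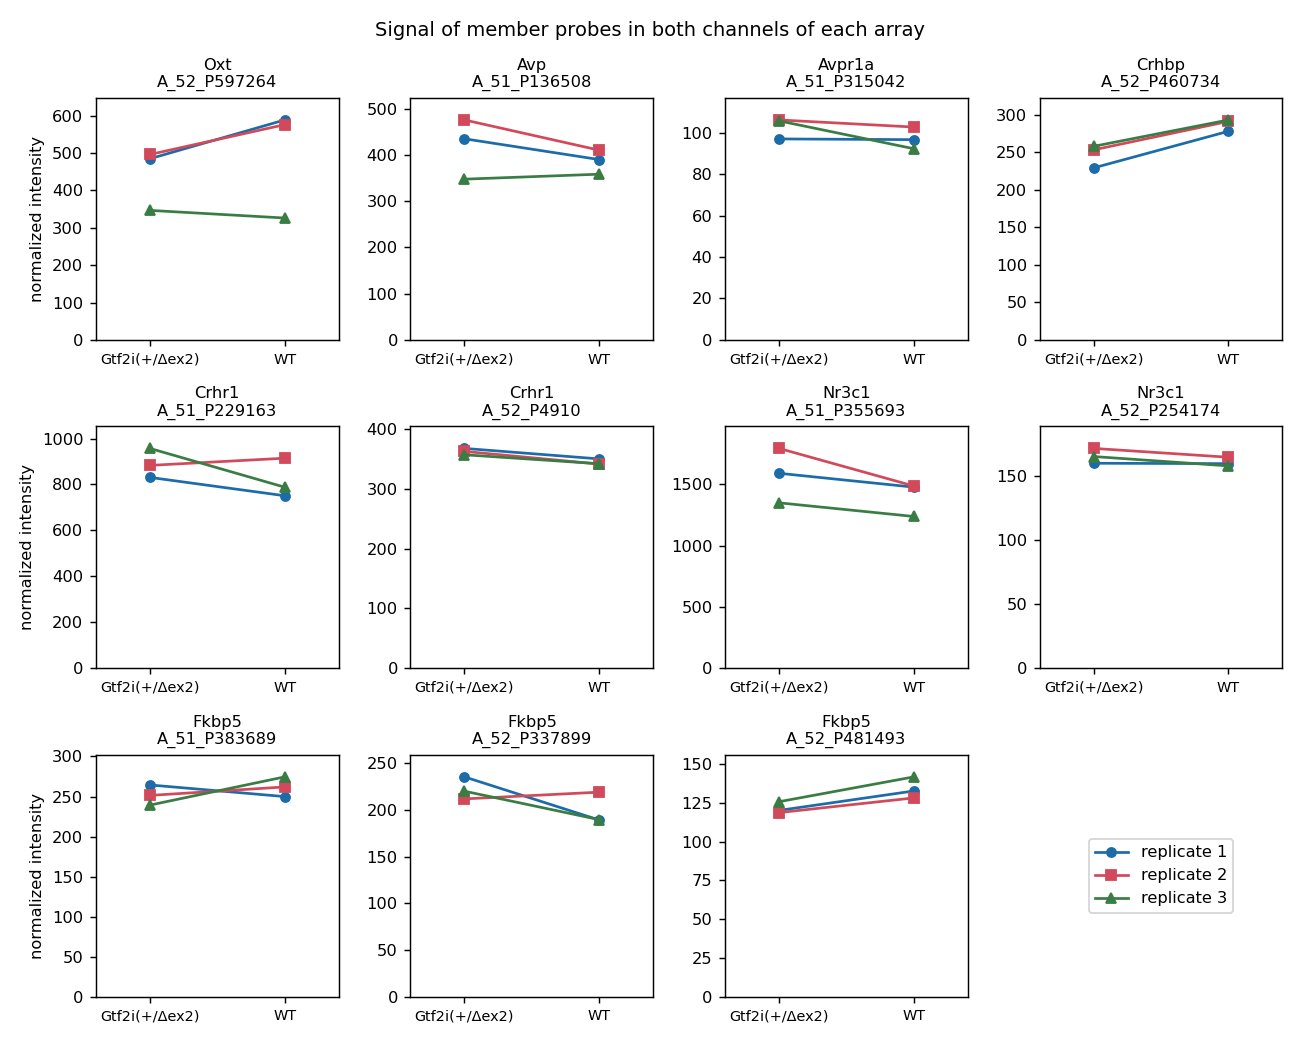
Normalized intensity (y axis, linear, from 0) of each probe in the Gtf2i(+/Δex2) channel (left) and the WT channel (right), with a line joining both channels of 1 array. For Oxt the lines of replicates 1 and 2 climb to WT while the line of replicate 3 sits below both of them at 346.49 in the mutant and 326.06 in WT, and for Crhbp all 3 lines climb to WT.

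Avpr1a encodes the vasopressin receptor V1a, the main vasopressin receptor of the forebrain. Its probe A_51_P315042 was not reliable on any array. Intensities were 97.01, 106.18 and 105.73 in Gtf2i(+/Δex2) cortex and 96.66, 102.74 and 92.27 in WT cortex. All 6 values lay near the level of the negative control spots, so no ratio is given.

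Crhbp, the gene of the CRH-binding protein, was lower in Gtf2i(+/Δex2) cortex on every array. The intensities of its probe A_52_P460734 were 229.43, 253.49 and 258.24 in Gtf2i(+/Δex2) cortex, against 278.34, 291.51 and 293.45 in WT cortex. The highest mutant value was below the lowest WT value, and this lack of overlap was seen for 32.2% of all tested probes. The log2 ratios were -0.28, -0.20 and -0.18, with a mean of -0.22 ± 0.05 (SD, n = 3; 95% interval -0.32 to -0.12), which is 85.8% of WT. The limma adjusted p was 0.0129. It was 0.132 without replicate 1, where the call was lost. The sign was the same on the array with exchanged dyes. Crhbp marks a subset of somatostatin interneurons in the cortex. Sst, the somatostatin gene, had intensities of 7606.1, 8337.3 and 10891.9 in Gtf2i(+/Δex2) cortex and 12283.2, 12338.6 and 15036.2 in WT cortex. Mutant values of Sst lay below all WT values, with log2 ratios of -0.69, -0.57 and -0.47 and a mean of -0.57 ± 0.11 (SD, n = 3; limma adjusted p = 0.0032). The 17 tested probes of the 14 markers of GABAergic interneurons had mean log2 ratios of -0.214, -0.184 and 0.018 on replicates 1, 2 and 3. Of these markers 0 were called higher and 4 lower (Sst, Npy, Cck and Gad1), where 17.1% of all tested genes were called higher and 23.6% lower at their probe of smallest p. The other Gad1 probe, at -0.20, was not called (limma adjusted p = 0.0643). The remaining 10 markers were not called, and Pvalb, Dlx5 and Slc32a1 among them had means above 0, of 0.35, 0.22 and 0.21. Of the 8 tested markers of cortical neurons, 1 was called higher and 4 lower. The part of the interneuron markers in the Crhbp value was not tested.

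Crhr1, the receptor through which CRH acts in the cortex and on pituitary cells, was not called at either probe. At probe A_51_P229163 the intensities were 830.82, 883.06 and 957.0 in Gtf2i(+/Δex2) cortex and 750.99, 914.36 and 788.18 in WT cortex. The groups overlapped, and mutant signal was above WT signal on replicates 1 and 3 but below it on replicate 2, the array with exchanged dyes. The mean log2 ratio was 0.13 ± 0.17 (SD, n = 3; limma adjusted p = 0.212, 95% interval -0.05 to 0.30). At probe A_52_P4910 the intensities were 367.08, 362.09 and 356.44 in Gtf2i(+/Δex2) cortex and 349.53, 340.89 and 341.47 in WT cortex. All mutant values lay above all WT values, by a small step, and a lack of overlap was seen for 32.2% of all tested probes. The mean log2 ratio at this probe was 0.07 ± 0.01 (SD, n = 3; limma adjusted p = 0.174, 95% interval -0.02 to 0.16). Its small SD lies below the median SD of 0.074 over all tested probes, and limma moderates it towards that of the other probes. Both Crhr1 probes therefore had means above 0 that did not pass the test.

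Nr3c1, which encodes the glucocorticoid receptor, was called at 1 of its 2 tested probes. At probe A_51_P355693 the intensities were 1590.96, 1793.94 and 1350.02 in Gtf2i(+/Δex2) cortex and 1477.81, 1487.10 and 1238.61 in WT cortex. Mutant signal was above WT signal on each array, while the groups overlapped across arrays. Replicate 3 was the dimmest array for this probe in both channels. The mean log2 signal of the probe differed there by -0.29 from replicates 1 and 2, and 5.93% of all tested probes moved at least as far. The log2 ratios of this probe were 0.11, 0.27 and 0.12, with a mean of 0.17 ± 0.09 (SD, n = 3; 95% interval 0.05 to 0.29), which is 112% of WT, and the limma adjusted p was 0.0474. The call lay close to the threshold. Leaving out replicate 1 ended it (limma adjusted p = 0.154), as did leaving out replicate 2 (limma adjusted p = 0.109). At the dim probe A_52_P254174 the intensities were 159.85, 171.43 and 165.10 in Gtf2i(+/Δex2) cortex and 159.55, 164.53 and 157.78 in WT cortex. The groups overlapped, and the mean log2 ratio was 0.04 ± 0.03 (SD, n = 3; limma adjusted p = 0.423, 95% interval -0.05 to 0.14).

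Fkbp5, the co-chaperone gene that is commonly read as a target of the glucocorticoid receptor, gave no call, and its probes did not share a sign. At probe A_51_P383689 the intensities were 264.43, 251.36 and 239.27 in Gtf2i(+/Δex2) cortex and 249.91, 261.93 and 274.52 in WT cortex. Mutant signal was above WT signal on replicate 1 only, and the mean log2 ratio was -0.06 ± 0.14 (SD, n = 3; limma adjusted p = 0.491, 95% interval -0.21 to 0.09). At probe A_52_P337899 the intensities were 235.32, 211.74 and 220.00 in Gtf2i(+/Δex2) cortex and 189.11, 218.97 and 189.51 in WT cortex. Here mutant signal was above WT signal on replicates 1 and 3 and below it on replicate 2, with a mean log2 ratio of 0.16 ± 0.19 (SD, n = 3; limma adjusted p = 0.157, 95% interval -0.03 to 0.35). Without replicate 2 this probe had a mean of 0.27 and was called (limma adjusted p = 0.0301). The third probe, A_52_P481493, was reliable on 1 array and was not tested. Its intensities were 120.14, 118.73 and 125.75 in Gtf2i(+/Δex2) cortex and 132.68, 128.20 and 141.76 in WT cortex, lower in the mutant channel of each array. The authors' flags call this probe absent in all 6 channels, so no ratio is given.

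**Figure D3:**
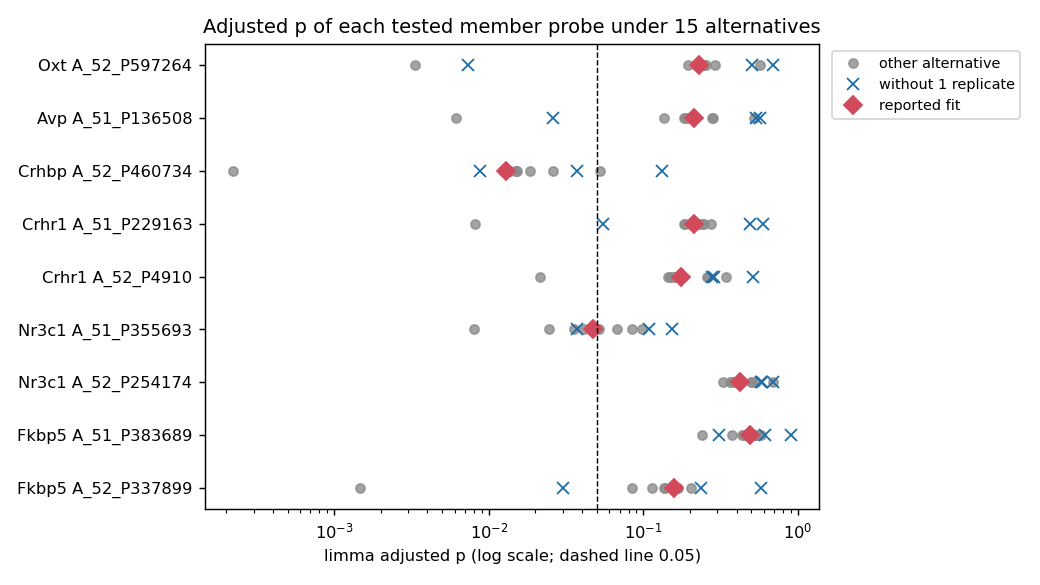
Adjusted p from limma (x axis, log scale, dashed line at 0.05) for each tested probe of the set (y axis) in the reported fit (red diamond), with 1 replicate left out (blue cross) and under the other alternatives (grey circle). Crhbp A_52_P460734 lies left of the line in 13 of 15 alternatives and Nr3c1 A_51_P355693 in 8 of 15, while the highest adjusted p of Crhbp is 0.132.

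Brightness moved with the share of probes called. With the tested probes in 4 bins of equal size by signal, 14.1%, 30.4%, 40.8% and 50.3% were called from the dimmest bin to the brightest. Crhbp lay in the bin with 30.4% called and the called Nr3c1 probe in the brightest bin. The uncalled Oxt and Avp probes, and Crhr1 A_51_P229163, lay in the bin with 40.8% called.

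Genes whose log2 ratios on the 3 arrays were closest to those of the 2 called probes were looked up among probes of like signal, within 1 on the log2 scale. For Crhbp, 9233 probes were compared, and the nearest were Zfpm2, a cofactor of GATA factors, Klf5, a zinc-finger transcription factor, and Tars2, a mitochondrial threonyl-tRNA synthetase. Their root-mean-square differences from Crhbp over 3 arrays were 0.01, 0.011 and 0.011 in log2 ratio. For Nr3c1, among 3876 probes, the nearest were Atg3, an autophagy enzyme, Rassf7, a Ras-association domain protein, and Papola, a poly(A) polymerase, at 0.01, 0.014 and 0.02. Likeness over 3 arrays is a description of these arrays.

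Other genes that make, process or receive oxytocin and vasopressin included 3 higher and 1 lower of 9 tested, taken at each gene's probe of smallest p. The shares over all tested genes, 17.1% higher and 23.6% lower, follow the same rule. The median log2 ratio of the 9 genes was 0.08, against -0.02 over all genes. Pam, the enzyme that amidates the carboxyl end of both hormones, had intensities of 260.6, 276.8 and 258.7 in Gtf2i(+/Δex2) cortex and 347.0, 340.4 and 365.3 in WT cortex. Mutant values of Pam lay below all WT values, and a lack of overlap was seen for 32.2% of all tested probes. The log2 ratio of Pam was -0.40 ± 0.10 (SD, n = 3; limma adjusted p = 0.00508) and -0.39 at its other probe. Pcsk1 and Pcsk2, the proconvertases that cut prohormones, had log2 ratios of 0.21 ± 0.03 and 0.18 ± 0.06 (limma adjusted p = 0.0119 and 0.0289), with 0.05 at the other Pcsk2 probe. Cd38, an enzyme required in mice for oxytocin release, had a log2 ratio of 0.19 ± 0.02 (limma adjusted p = 0.0146). Without replicate 1, when 2407 of all 27531 tested probes were called, Pam alone of these 4 was called. Avpr2, the kidney vasopressin receptor, at -0.11 ± 0.04, and Avpr1b, the pituitary one, at 0.02 ± 0.07, did not pass. Without replicate 3, 2 of the 9 genes were called lower, when 9886 of all tested probes were called in either direction.

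In the CRH family and pituitary hormone pathway, 0 of 11 tested genes were called higher and 3 lower, with a median log2 ratio of -0.05. By the same rule, 17.1% of all tested genes were called higher and 23.6% lower, with a median of -0.02. Pomc, the precursor of adrenocorticotropin and melanocortins, had intensities of 318.5, 331.2 and 317.9 in Gtf2i(+/Δex2) cortex and 495.9, 500.9 and 953.8 in WT cortex. The WT channel of replicate 3 stood far above the other WT values of Pomc, and the mutant values were close together. The log2 ratio of Pomc was -0.94 ± 0.56 (SD, n = 3; limma adjusted p = 0.0207), and -0.62 without replicate 3 (limma adjusted p = 8.44e-05). Gnas, which encodes the stimulatory G protein that couples CRH receptors to adenylyl cyclase, had a log2 ratio of -0.29 ± 0.04 (limma adjusted p = 0.00563) at 1 probe and between -0.24 and 0.14 at its other 3 tested probes. Adcyap1r1, the receptor of the related peptide PACAP, was at -0.19 ± 0.02 (limma adjusted p = 0.0153). Without replicate 1, when 2407 of all 27531 tested probes were called, Pomc alone of these 3 was called. Without replicate 3, when 9886 probes were called in either direction, 2 genes of the list were called higher. Crhr2, the second CRH receptor, at 0.09 ± 0.02, did not pass.

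Of 20 tested chaperones and co-factors of the corticosteroid receptors, 12 were called lower and 5 higher, with a median log2 ratio of -0.27. The shares over all tested genes were 23.6% lower and 17.1% higher, with a median of -0.02. This list, like the other lists, was chosen with earlier results of these data known. Of these 20 genes, 9 lay in the brightest of the 4 bins. Hspa8, the constitutive Hsp70 chaperone, had a log2 ratio of -0.48 ± 0.05 (limma adjusted p = 0.00274) and -0.37 at its other probe. Ncor1, a corepressor of nuclear receptors, had -0.59 ± 0.14 (limma adjusted p = 0.0035) and -0.52. Fkbp4, the co-chaperone that competes with the Fkbp5 product for Hsp90, had -0.33 ± 0.07 (limma adjusted p = 0.00578) and -0.19. For these 3 genes the probes shared their sign. Probes of 3 others did not: Ptges3, the Hsp90 co-chaperone p23, had 0.40 ± 0.04 (limma adjusted p = 0.00327) at 1 probe and -0.48 (limma adjusted p = 0.00873) at the other. Hspa4, an Hsp110-family chaperone, had -0.36 ± 0.04 (limma adjusted p = 0.00364) and 0.06. Ppp5c, a phosphatase bound to Hsp90, had -0.35 ± 0.08 (limma adjusted p = 0.00523) and 0.18 (limma adjusted p = 0.0315). Both probes of Ptges3 and of Ppp5c were thus called, in opposite directions, so their place in the counts rests on the smallest p. Of the 6 named genes, Fkbp4 lost its call without replicate 1. The count of genes called lower in the whole list was then 5, and that of genes called higher was 1, 2 and 2 without replicates 1, 2 and 3. Over all 27531 tested probes, 2407, 7053 and 9886 were called in these fits, in either direction.

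Genes that glucocorticoids induce in other settings were called lower in 6 and higher in 1 of 17 tested, with a median log2 ratio of -0.14. Over all tested genes, 23.6% were called lower and 17.1% higher, with a median of -0.02. Of the 17 genes, 12 lay in the brightest bin. Aqp4, the astrocyte water channel, had intensities of 461.4, 440.6 and 444.7 in Gtf2i(+/Δex2) cortex and 819.4, 778.4 and 723.8 in WT cortex at the probe of smallest p. The groups of Aqp4 were far apart at this probe, with a log2 ratio of -0.78 ± 0.07 (SD, n = 3; limma adjusted p = 0.00197), while its other probes gave -0.07 and -0.30. A lack of overlap was seen for 32.2% of all tested probes. Klf9, a transcription factor gene, had -0.48 ± 0.08 (limma adjusted p = 0.00315), with -0.35 at its other probe. Ddit4, an inhibitor of mTORC1 signalling, had -0.43 ± 0.07 (limma adjusted p = 0.00364), and Glul, the glutamine synthetase of astrocytes, -0.55 ± 0.14 (limma adjusted p = 0.00387). Fam107a had -0.39 ± 0.12 (limma adjusted p = 0.00714), and Pdk4, a mitochondrial kinase, was the gene called higher, at 0.32 ± 0.10 (limma adjusted p = 0.00973). Sgk1, a kinase gene among the best known glucocorticoid targets, did not pass. It had log2 ratios of 0.54, 0.56 and -0.28 on replicates 1, 2 and 3. Tsc22d3, which encodes the leucine zipper protein GILZ, had 0.28, 0.15 and -0.16, with the same change of sign on replicate 3. Without replicate 3, when 9886 of all 27531 tested probes were called in either direction, 5 genes were called higher. Without replicate 1, when 2407 probes were called, 4 genes were called lower and 0 higher. Of the genes named here, Fam107a and Pdk4 then lost their call.

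**Figure D4:**
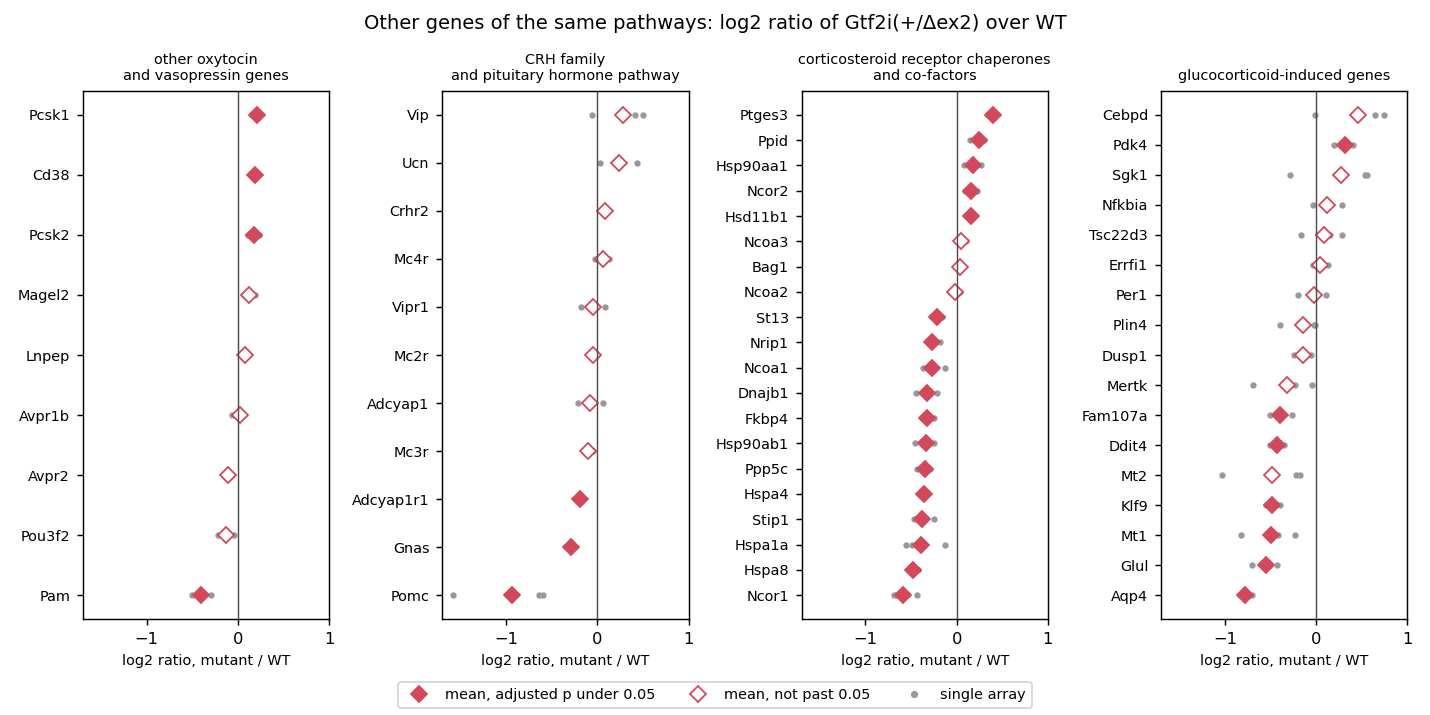
Log2 ratio of Gtf2i(+/Δex2) over WT (x axis) of each tested gene in the 4 lists of related genes (y axis, ordered by mean), with small grey points for the 3 arrays and a diamond for their mean, filled where the limma adjusted p is under 0.05. The chaperone list has 12 filled diamonds below 0 and 5 above, and the list of oxytocin and vasopressin genes has 3 above and 1 below. Over all tested genes, 23.6% were called lower and 17.1% higher.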

How the data were processed

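Per the labels' protocols, 500 ng of total RNA with an integrity number of at least 7 was amplified and hybridised to 60-mer Agilent arrays. Per the deposited readme, the authors read the arrays with GenePix and deposited linear intensities of both channels, background-subtracted, normalized by a method not given in the sources used here, corrected for the dye swap, with a log2 ratio per probe. The series' own deposited table gives a score, the authors' signed fold, which equals the arrays' own fold values. Of 44290 spots, 41534 held 41174 gene probes, and RefSeq accessions named 21445 (52.1%). Reliable gene spots made up 64.4% to 69.7% per array. The number of arrays limits the precision.

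Spots of a probe were averaged and the log2 ratio of the deposited channels tested with limma 3.58.1 in R 4.3.3, checked on simulated data. Probes were described by gene, every probe of the 10 genes being given. Of the related lists, each called gene was named, or the 6 with the smallest p. Single marker genes, Sgk1, Tsc22d3, Avpr1b, Avpr2 and Crhr2 were named after their values were seen. The 10 genes and all lists were chosen with earlier results of these data known. Alternatives covered normalization, filters, background, arrays left out and array weights, and counts of the related lists without each replicate were added after seeing the data. The R package data.table (version 1.17.8), Python 3.11.15, pandas 2.3.3 and matplotlib 3.10.9 were also used.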

Additional observations from a re-analysis of the deposited data

How the results depend on the processing

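The 9333 probes called in all became 5122 with replicates 1 and 2 averaged as 1 sample, 18614 with array weights, and 2407 to 9886 when 1 replicate was left out. The 2 called probes of the hormone and stress genes became 1 with the negative control level subtracted, with no filter on dim probes, with the authors' collapsed log2 ratio and with the series value table, 0 with replicates 1 and 2 averaged, 7 with array weights, and 0 to 4 when 1 replicate was left out. Array weights put 5.84 on replicate 1 against 0.373 and 0.459 on replicates 2 and 3. Fkbp5 A_51_P383689 turned to 0.05 with array weights and to 0.01 without replicate 3 (-0.13 to 0.01 over arrays left out). Crhbp lost its call in 2 of 15 alternatives and the Nr3c1 probe A_51_P355693 in 7 of 15. Their limma adjusted p-values ranged over 0.000221 to 0.132 and 0.008 to 0.154. Those of Oxt ranged over 0.00331 to 0.694 and those of Avp over 0.00615 to 0.566, each past the threshold in 2 of 15. Gtf2i A_51_P499905 reached 0.056 without replicate 1. The dye orientation as a term called 0 probes for the dye itself. Only replicate 2 had exchanged dyes, so this term could not be told apart from other traits of that array. With 3 arrays it also had little chance to call a probe. Among the tested member probes the term was largest at Fkbp5 A_52_P337899 (0.16) and Crhr1 A_51_P229163 (0.13), as large as their mean log2 ratios. The causes were not tested. Signal near the negative controls limits Avpr1a, and signal that the authors call absent limits Fkbp5 A_52_P481493.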
